A study of Mus musculus with 12 samples.

Results

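The collagen genes of the mouse retina were taken as the genes whose symbol consists of Col, a family number, a and a chain number. They numbered 44 of the 50559 genes in the count table. By family, 7 were basement membrane collagens (Col4a1 to Col4a6 and Col18a1), 6 were fibrillar collagens (Col1a1, Col1a2, Col3a1, Col5a1, Col5a2 and Col5a3) and 31 were other collagens, a mixed class that also holds the fibril-forming chains of types II, XI, XXIV and XXVII. All 44 had enough counts to be tested in every comparison, and the lowest count of any of them in any library was 6.

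Collagens are triple helices of 3 alpha chains that are wound in the endoplasmic reticulum, trimmed outside the cell and cross-linked into sheets, fibrils or filaments. Type IV collagen forms the sheet of the basement membranes that ensheath retinal capillaries, where endothelial cells and pericytes share a membrane, and that line the inner face of the retina. Types I, III and V build the fibrils of fibrous tissue such as sclera and scar, whereas types II, V, IX and XI make the fibrils of the vitreous gel next to the retina.

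The study asked how the loss of pericytes and the antibiotic minocycline alter the retinal transcriptome, and RNA was sequenced from retinas of wild-type C57BL6/J mice collected at postnatal day 28, with 3 libraries in each of 4 groups. All pups received 30 µg of antibody under the skin on day 1, which was an IgG isotype control in the groups IgG and IgG+Mino and a rat monoclonal antibody against mouse PDGFRB (clone APB5) in the groups APB5 and APB5+Mino. PDGFRB is the receptor through which pericytes are drawn to growing capillaries. The groups IgG+Mino and APB5+Mino also received minocycline by intraperitoneal injection at 45 mg/kg every day from day 5 to day 27. The antibody was given to the whole animal and not to the eye alone, the sexes were mixed, and each group held 3 mice.

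Total counts ranged from 52740545 to 59411044 per library. Levels are given in CPM, counts relative to a library total scaled with edgeR's TMM factor. APB5 replicate 3 stood apart from the other 11 libraries, with a score of 126.6 on the first principal component of all expressed genes against -53.8 to 25.6. Its summed level of 8 rod genes was 12090 CPM against 46620 to 69730 CPM elsewhere. Xist, which is transcribed from the inactive X chromosome of females, had at least 47210 counts in 5 libraries (those of IgG, together with replicate 3 of APB5 and of APB5+Mino), whereas the other 7 had no more than 38. The Xist split and minocycline therefore cannot be told apart between IgG+Mino and IgG, nor the Xist split and the antibody between IgG and APB5 replicates 1 and 2. For main results that use APB5 replicate 3, values without it follow where these differ in call or size. They are not given for every gene, model or count.

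Levels of different genes were compared per kilobase of exon, with the exons of GENCODE M39 on GRCm39. In IgG retina the highest level per kilobase was that of Col23a1, a transmembrane collagen, at 20.2 CPM per kb. Col9a1, a chain of the type IX collagen that coats vitreous and cartilage fibrils, followed at 19.7 CPM per kb, and Col6a1, a chain of the beaded filaments around cells, at 17.4 CPM per kb. The libraries of each of these 3 genes overlapped with those of its neighbour in this order. Below them lay Col9a2 at 9.78, Col18a1 at 9.31, Col4a2 at 8.75, Col20a1 at 8.12, Col4a1 at 7.44 and Col2a1 at 7.31 CPM per kb, and the libraries of Col6a1 did not overlap with those of Col9a2.

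The fibrillar collagens were low in IgG retina. Col5a1 reached 2.18 CPM per kb and Col5a3 1.58 CPM per kb, whereas Col1a2, Col1a1, Col3a1 and Col5a2 were at 0.762, 0.470, 0.299 and 0.222 CPM per kb. Among the type IV chains, Col4a5 was at 1.77, Col4a3 at 0.953, Col4a4 at 0.605 and Col4a6 at 0.518 CPM per kb, all below Col4a1 and Col4a2. The lowest collagen was Col14a1, a fibril-associated chain, at 0.0439 CPM per kb. Exons of all isoforms were counted in the length, so genes with many isoforms have their level per kilobase understated.

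**Figure D1:**
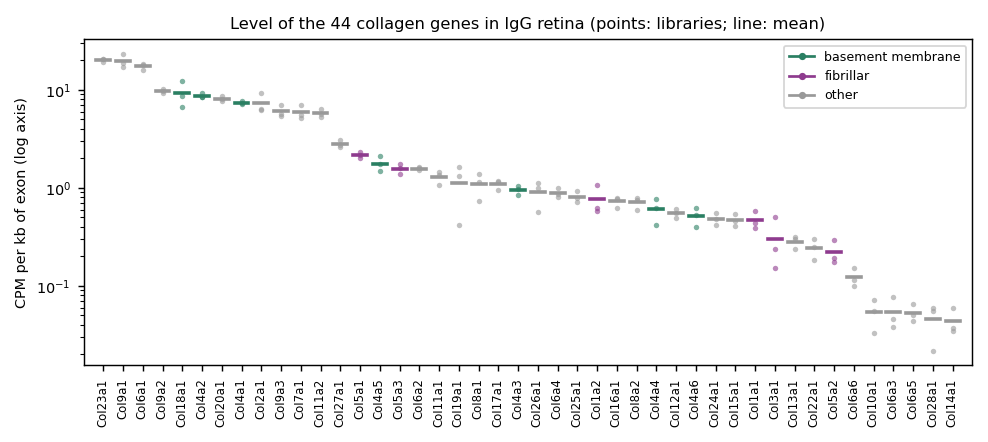
Level of each of the 44 collagen genes in IgG retina in CPM per kilobase of exon on a log axis, with 1 point per library (n = 3), a line at the mean and colours for basement membrane, fibrillar and other collagens. Levels ran from 0.0439 CPM per kb for Col14a1 to 20.2 CPM per kb for Col23a1, and Col1a1, Col1a2, Col3a1 and Col5a2 sat in the lower part of the order.

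The 6 type IV genes lie head to head in 3 pairs, and the chains of a pair are read in opposite directions. Col4a1 (chr8:11248423-11362826, minus strand) and Col4a2 (chr8:11362471-11499287, plus strand) overlap by 356 bases, and Col4a4 (chr1:82426144-82564800, minus strand) and Col4a3 (chr1:82564642-82699780, plus strand) overlap by 159 bases. Col4a6 (chrX:139948399-140257072, minus strand) and Col4a5 (chrX:140258354-140472231, plus strand) are 1281 bases apart. The use of the strand in counting is not given in the sources used here, so reads from the overlaps could be split either way. Col4a1 and Col4a2 share 4.94% and 4.93% of their exonic bases with other genes.

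Col4a1, which assembles with Col4a2 into the common type IV heterotrimer, was measured at 54.1, 57.8 and 54.7 CPM in IgG, at 61.4, 55.9 and 60.2 CPM in IgG+Mino, at 64.7, 75.6 and 207 CPM in APB5 and at 62.4, 68.1 and 68.7 CPM in APB5+Mino. Col4a2 was at 60.7, 67.5 and 60.3 CPM in IgG, at 61.1, 53.2 and 58.5 CPM in IgG+Mino, at 60.8, 68.4 and 173 CPM in APB5 and at 59.8, 62.1 and 70.7 CPM in APB5+Mino. Both chains were highest in APB5 replicate 3, and Col4a2 overlapped between APB5 and each of the other groups.

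The chains Col4a3, Col4a4 and Col4a5 form the type IV collagen of specialised basement membranes such as that of the kidney glomerulus. Col4a3 was at 10.4, 9.71 and 8.34 CPM in IgG, at 7.35, 9.90 and 10.3 CPM in IgG+Mino, at 7.23, 10.5 and 14.9 CPM in APB5 and at 11.8, 11.2 and 12.6 CPM in APB5+Mino. Col4a4 was at 8.81, 7.12 and 4.78 CPM in IgG, at 4.83, 10.1 and 8.28 CPM in IgG+Mino, at 7.79, 8.69 and 21.9 CPM in APB5 and at 9.56, 9.40 and 8.50 CPM in APB5+Mino. Both were again highest in APB5 replicate 3.

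Col4a5, on the X chromosome, was at 13.9, 19.6 and 16.2 CPM in IgG, at 11.7, 20.9 and 20.9 CPM in IgG+Mino, at 18.6, 16.7 and 26.4 CPM in APB5 and at 15.5, 20.6 and 19.01 CPM in APB5+Mino. Col4a6 was at 3.20, 4.94 and 4.25 CPM in IgG, at 1.99, 3.95 and 5.53 CPM in IgG+Mino, at 5.39, 5.002 and 15.5 CPM in APB5 and at 3.54, 3.56 and 3.85 CPM in APB5+Mino. All 3 APB5 libraries of Col4a6 lay above all 3 of IgG and of APB5+Mino.

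Col18a1 (chr10:76888012-77002390, minus strand) encodes the core of a basement membrane proteoglycan whose tail is released as endostatin. Its level was 47.5, 88.1 and 61.8 CPM in IgG, 21.7, 57.2 and 83.9 CPM in IgG+Mino, 83.7, 81.7 and 152 CPM in APB5 and 37.7, 39.6 and 52.4 CPM in APB5+Mino. The APB5 and APB5+Mino libraries did not overlap, and the spread within IgG and IgG+Mino was wide. Exons of Slc19a1 on the other strand share 12.7% of the exonic bases of Col18a1.

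Among the fibrillar chains, Col1a1 (chr11:94827050-94843868, plus strand), the main chain of type I collagen, was at 2.54, 3.83 and 2.88 CPM in IgG, at 2.04, 2.16 and 2.45 CPM in IgG+Mino, at 1.97, 6.02 and 294 CPM in APB5 and at 2.56, 2.25 and 2.80 CPM in APB5+Mino. Col1a2 (chr6:4504814-4541555, plus strand), its partner, was at 7.34, 13.6 and 7.98 CPM in IgG, at 4.20, 6.87 and 11.7 CPM in IgG+Mino, at 16.6, 25.7 and 277 CPM in APB5 and at 6.28, 4.48 and 5.96 CPM in APB5+Mino. Col3a1 (chr1:45350698-45395840, plus strand), the chain of type III collagen, was at 1.57, 5.22 and 2.44 CPM in IgG, at 2.01, 1.81 and 2.82 CPM in IgG+Mino, at 4.92, 4.62 and 140 CPM in APB5 and at 1.20, 0.920 and 1.58 CPM in APB5+Mino. In APB5 replicate 3 these 3 genes stood at 48.8, 10.8 and 26.8 times the highest of the other 11 libraries, and even without that library every APB5 value of Col1a2 was above every value of the other groups.

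Type V collagen sets the diameter of type I fibrils. Col5a1 was at 17.8, 20.4 and 18.9 CPM in IgG, at 15.6, 20.4 and 17.4 CPM in IgG+Mino, at 16.7, 21.6 and 49.0 CPM in APB5 and at 18.8, 19.7 and 19.9 CPM in APB5+Mino. Col5a2 was at 1.98, 3.31 and 2.16 CPM in IgG, at 0.815, 1.15 and 1.19 CPM in IgG+Mino, at 2.12, 2.03 and 29.4 CPM in APB5 and at 1.45, 2.33 and 1.504 CPM in APB5+Mino. Col5a3 was at 10.96, 9.504 and 12.1 CPM in IgG, at 11.1, 10.8 and 8.22 CPM in IgG+Mino, at 11.4, 11.3 and 42.7 CPM in APB5 and at 12.3, 10.5 and 10.7 CPM in APB5+Mino. Apart from APB5 replicate 3, the type V chains of the APB5 group overlapped with those of IgG.

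**Figure D2:**
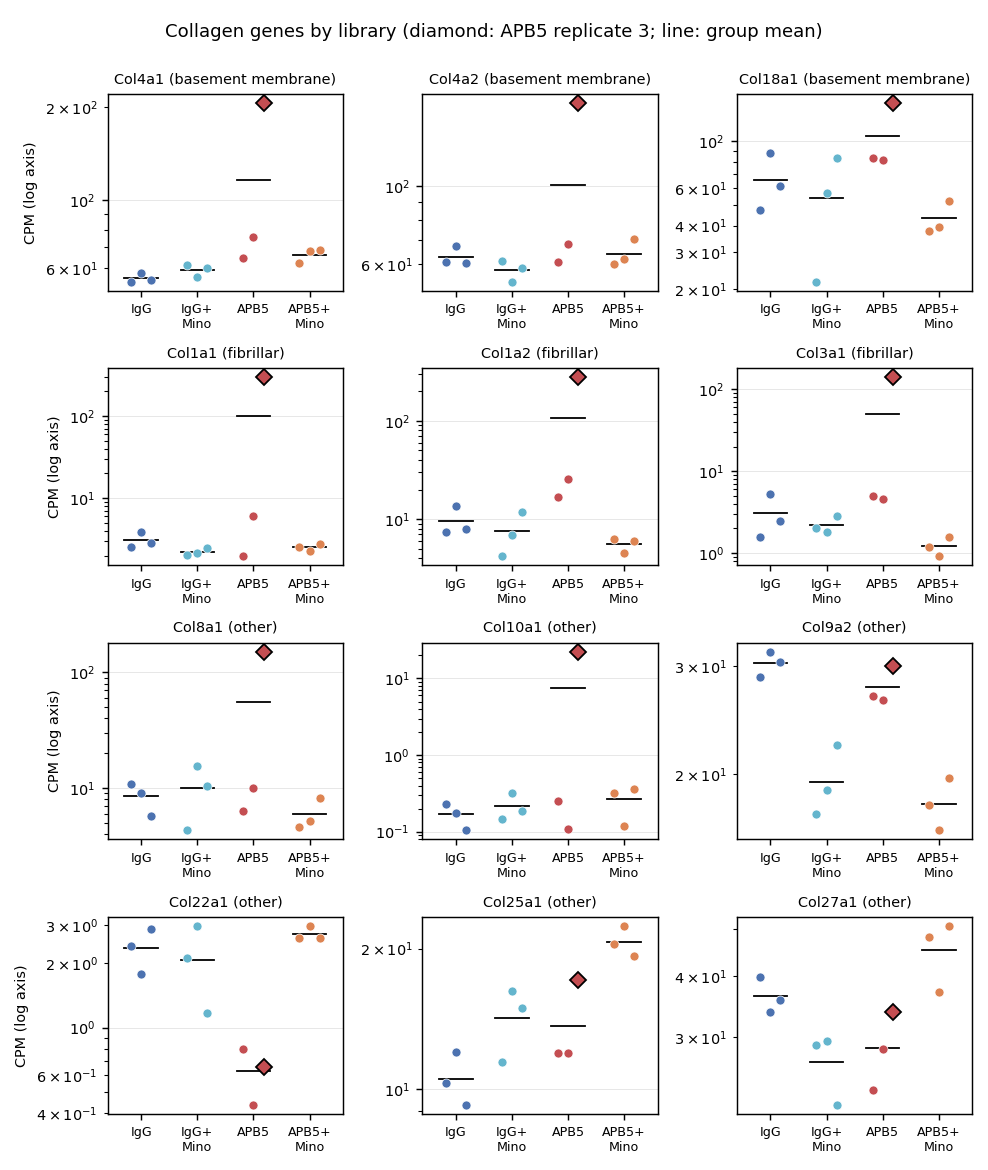
Level in CPM, on a log axis, of 12 collagen genes in each of the 12 libraries by group, with a line at the group mean and a diamond for APB5 replicate 3. Col4a1, Col4a2, Col1a1, Col1a2, Col3a1, Col8a1 and Col10a1 were far higher in that library than in any other, whereas Col22a1 was low in all 3 APB5 libraries and Col9a2 was low in both groups given minocycline.

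APB5 replicate 3 was the highest of the 12 libraries for 29 of the 44 collagens and the lowest for 2. It was the highest for 7 of 7 basement membrane, 6 of 6 fibrillar and 16 of 31 other collagens, and exceeded the highest other library more than 2 times for 4, 6 and 9 of them. The share of all genes that were highest or lowest in this library was not counted. These counts, and those of the marker lists below, therefore cannot be read as particular to these genes. The summed level of the fibrillar collagens was 832 CPM in this library against 35.7 to 71.2 CPM in the other 11, that of the basement membrane collagens 611 against 170 to 266 CPM and that of the others 1305 against 625 to 790 CPM. Among the others, Col10a1, a chain best known from cartilage that turns to bone, was at 22.5 CPM against 0.357 CPM at most elsewhere. The other 11 libraries held only 6 to 19 counts of Col10a1. Exons of Nt5dc1 on the other strand share 20.8% of its exonic bases. Col8a1 and Col8a2, the chains of the hexagonal network of the corneal Descemet membrane and of vessel walls, were at 152 and 98.0 CPM against at most 15.5 and 9.99 CPM. Col14a1, which binds type I fibrils, was at 9.86 CPM against at most 0.777 CPM.

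Other cell type markers moved in the same library. Its summed level of 10 gliosis genes (among them Gfap, Vim, Lcn2 and Timp1) was 5029 CPM against 298 to 600 CPM elsewhere, and all 10 were highest there. The 12 microglia and macrophage genes summed to 529 CPM against 27.8 to 86.5 CPM, with 11 of 12 highest there, and the 9 pigment epithelium and melanocyte genes to 800 CPM against 41.3 to 172 CPM, with 9 of 9 highest. For the 10 fibroblast and scleral genes the sums were 275 CPM against 19.9 to 150 CPM, with 8 of 10 highest. Of the 13 pericyte and smooth muscle genes 10 were highest there, among them the contractile genes Acta2, at 160.5 CPM against at most 8.79 CPM, and Tagln, at 80.0 CPM against at most 6.34 CPM. The sum of that list, at 642 CPM, lay within the 583 to 1116 CPM of the other libraries, with Vtn at 181 CPM against 510 to 1009 CPM. No marker of these lists was at 0 in all libraries. The part of these cell types in the collagen levels of APB5 replicate 3 was not tested, and in bulk RNA more cells of a type and more RNA per cell cannot be told apart.

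**Figure D3:**
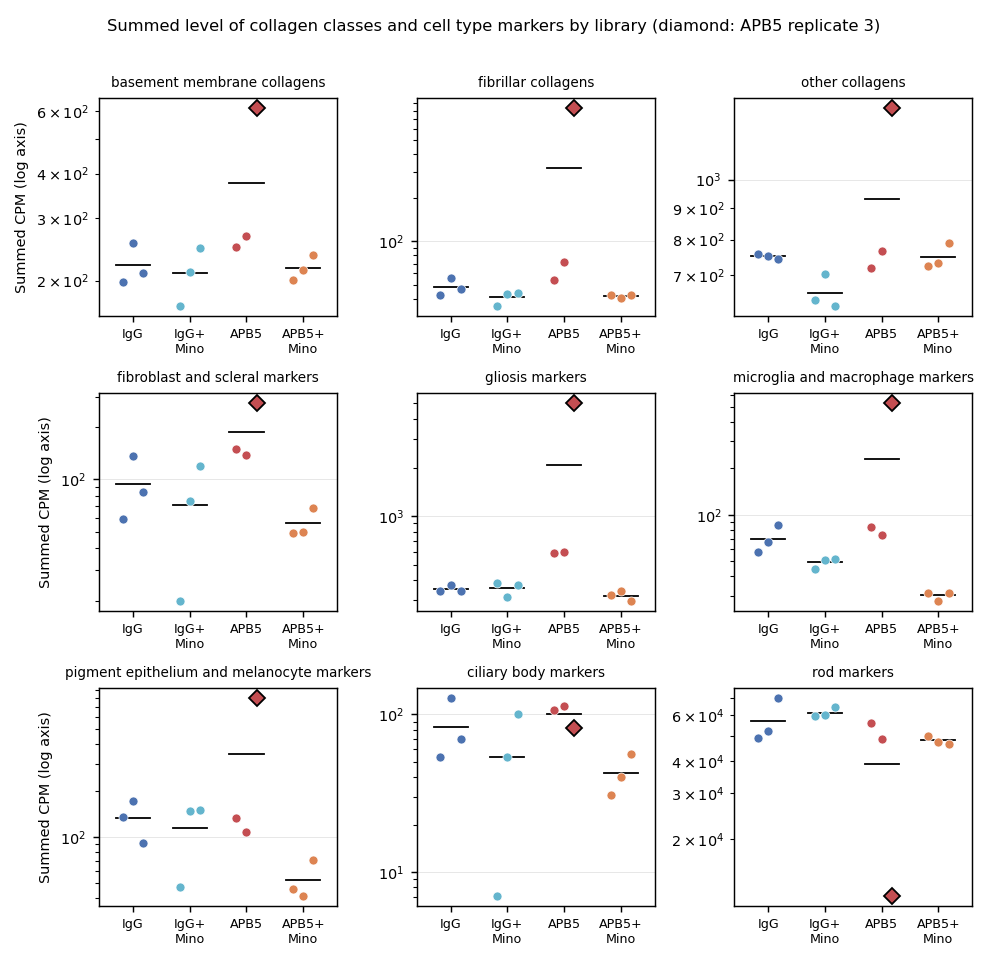
Summed CPM, on log axes, of the 3 collagen classes and of 6 marker lists in each library by group, with a line at the group mean and a diamond for APB5 replicate 3. In that library the fibrillar collagens summed to 832 CPM, the gliosis markers to 5029 CPM and the rod markers to 12090 CPM.

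Other collagens were not high in APB5 replicate 3. Col2a1, the vitreous fibril chain, was at 70.6 CPM in APB5 replicate 3 within a range of 57.8 to 87.3 CPM in the other 11 libraries. Col19a1, a fibril-associated chain that some neurons make, was at 4.54 CPM there and at 5.37 to 20.7 CPM elsewhere. Col20a1, another fibril-associated chain, was also lowest there, at 38.8 CPM against 42.3 to 60.8 CPM. Col7a1, the anchoring fibril chain, was at 51.1 CPM within 34.5 to 73.0 CPM.

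Partner chains are made to be assembled together, and their ratio within a library does not depend on scaling. Col4a2 and Col4a1 stayed close, with ratios of counts between 0.839 and 1.17 over the 12 libraries. The lowest of these came from APB5 replicate 3, where both chains were more than 2 times their highest level elsewhere. The ratio of Col4a6 to Col4a5 was higher in that library, at -0.77 on the log2 scale against -2.55 to -1.74, and so was that of Col4a4 to Col4a3, at 0.56 against -0.80 to 0.11. The log2 ratio of Col1a2 to Col1a1 was -0.08 there against 0.99 to 3.08. These are ratios of counts, and Col1a2 has the longer exons, with 12650 bases against 6567 for Col1a1.

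Between groups, 16 exact two-sided permutation tests of these ratios were run, and with 3 libraries against 3 the smallest p they can give is 0.1. Col4a2 to Col4a1 differed by -0.34 on the log2 scale between APB5 and IgG and by -0.22 between IgG+Mino and IgG, both with an exact p of 0.1. Col4a6 to Col4a5 differed by 0.58 between APB5 and IgG and by -0.89 between APB5+Mino and APB5, also with an exact p of 0.1. The APB5 against IgG differences without APB5 replicate 3 were -0.29 for Col4a2 to Col4a1 and 0.25 for Col4a6 to Col4a5, and the APB5+Mino against APB5 difference of Col4a6 to Col4a5 was -0.56. All 4 of the differences with every library included had an adjusted p of 0.4 over the 16 exact tests.

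**Figure D4:**
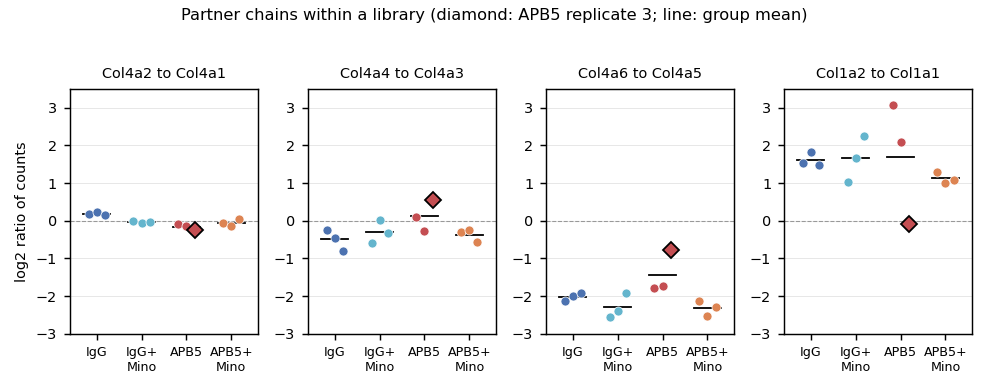
Log2 ratio of counts of 4 pairs of partner chains in each library by group, with a line at the group mean, a dashed line at equal counts and a diamond for APB5 replicate 3. The ratio of Col4a2 to Col4a1 stayed between -0.25 and 0.22 in all 12 libraries, and the ratio of Col1a2 to Col1a1 was -0.08 in APB5 replicate 3 against at least 0.99 in the others.

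APB5 against IgG asked what the blocking antibody did to the day 28 retina. No collagen was called, that is, reached an adjusted p of 0.05 or less over 20350 genes (edgeR's quasi-likelihood fit, p adjusted by Benjamini-Hochberg) together with a log2 fold change of 1 or more, up or down. Of all genes tested, 0% were called, and 11 collagens had an unadjusted p under 0.05 (10 higher and 1 lower), against 7.23% of all genes. DESeq2 called 1 collagen, Col22a1, among 0.428% of all genes. In 35 of 44 collagens the fold change was above 0, and the median log2 fold change was 0.58 over the 44, 0.70 for basement membrane, 2.85 for fibrillar and 0.25 for other collagens, beside -0.00246 over all genes. Without APB5 replicate 3 these medians were 0.07, 0.26, 0.22 and 0.03, the fold change was above 0 in 28 of 44, and 7 collagens had an unadjusted p under 0.05 (5 higher and 2 lower), against 5.71% of all genes.

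Groups that did not overlap were found for 9 collagens higher in APB5, where 7.79% of all genes were, and for 1 lower, where 7.89% of all genes were. The higher ones were Col1a2, Col4a1, Col4a6, Col6a3, Col9a3, Col12a1, Col14a1, Col17a1 and Col23a1. For Col1a2 the log2 fold change was 3.497 ± 0.979 (SE) with an edgeR adjusted p of 0.664, and without APB5 replicate 3 it was 1.14 ± 0.30 with an adjusted p of 0.598. For Col4a1 it was 1.08 ± 0.42, also with an edgeR adjusted p of 0.664, and 0.34 ± 0.12 without that library. Col6a3, the third chain of the main type VI collagen, was at 1.23, 1.21 and 15.99 CPM in APB5 and at 0.455, 0.928 and 0.553 CPM in IgG. Col12a1, which bridges fibrils, was at 10.5, 11.7 and 28.8 CPM in APB5 and at 7.55, 8.44 and 9.29 CPM in IgG.

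Col22a1 (chr15:71667644-71906095, minus strand) is a fibril-associated collagen known from tissue junctions such as those of muscle and tendon. It was the 1 collagen that lay lower in every APB5 library, at 0.795, 0.438 and 0.657 CPM, than in IgG, at 2.40, 1.77 and 2.87 CPM. It was at 2.10, 2.96 and 1.17 CPM in IgG+Mino and at 2.61, 2.98 and 2.61 CPM in APB5+Mino, so that the 3 APB5 libraries were the lowest of the 12. The log2 fold change of APB5 against IgG was -1.88 ± 0.33 with an edgeR adjusted p of 0.664, the smallest unadjusted p of any collagen in this comparison. Without APB5 replicate 3 it was -1.92 ± 0.35 with an edgeR adjusted p of 0.284.

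Of the 11 collagens with an unadjusted p under 0.05, only Col22a1 kept its fold change without APB5 replicate 3. The fold changes of the higher ones shrank. Those of Col6a3, Col9a3 and Col12a1 went from 3.28, 1.36 and 1.03 on the log2 scale to 0.92, 0.25 and 0.40. Col10a1 had a log2 fold change of 5.52 ± 1.81 that became 0.11 ± 0.62 without APB5 replicate 3, Col8a2 one of 3.31 ± 1.19 that became -0.04 ± 0.22, and Col8a1 one of 2.74 ± 1.08 that became -0.07 ± 0.30. Col1a1 went from 5.06 ± 1.51 to 0.38 ± 0.43 and Col3a1 from 4.05 ± 1.26 to 0.63 ± 0.44. Col14a1 was at 0.777, 0.566 and 9.86 CPM in APB5 and at 0.245, 0.420 and 0.259 CPM in IgG, and its log2 fold change was 3.63 ± 1.08, or 1.12 ± 0.42 without that library. When the Xist level was added as a term to a model of the 12 libraries, 20 collagens were called (19 higher and 1 lower), among 5.58% of all genes. APB5 replicate 3 was the only APB5 library with a high Xist count, and this model was not fitted without it.

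**Figure D5:**
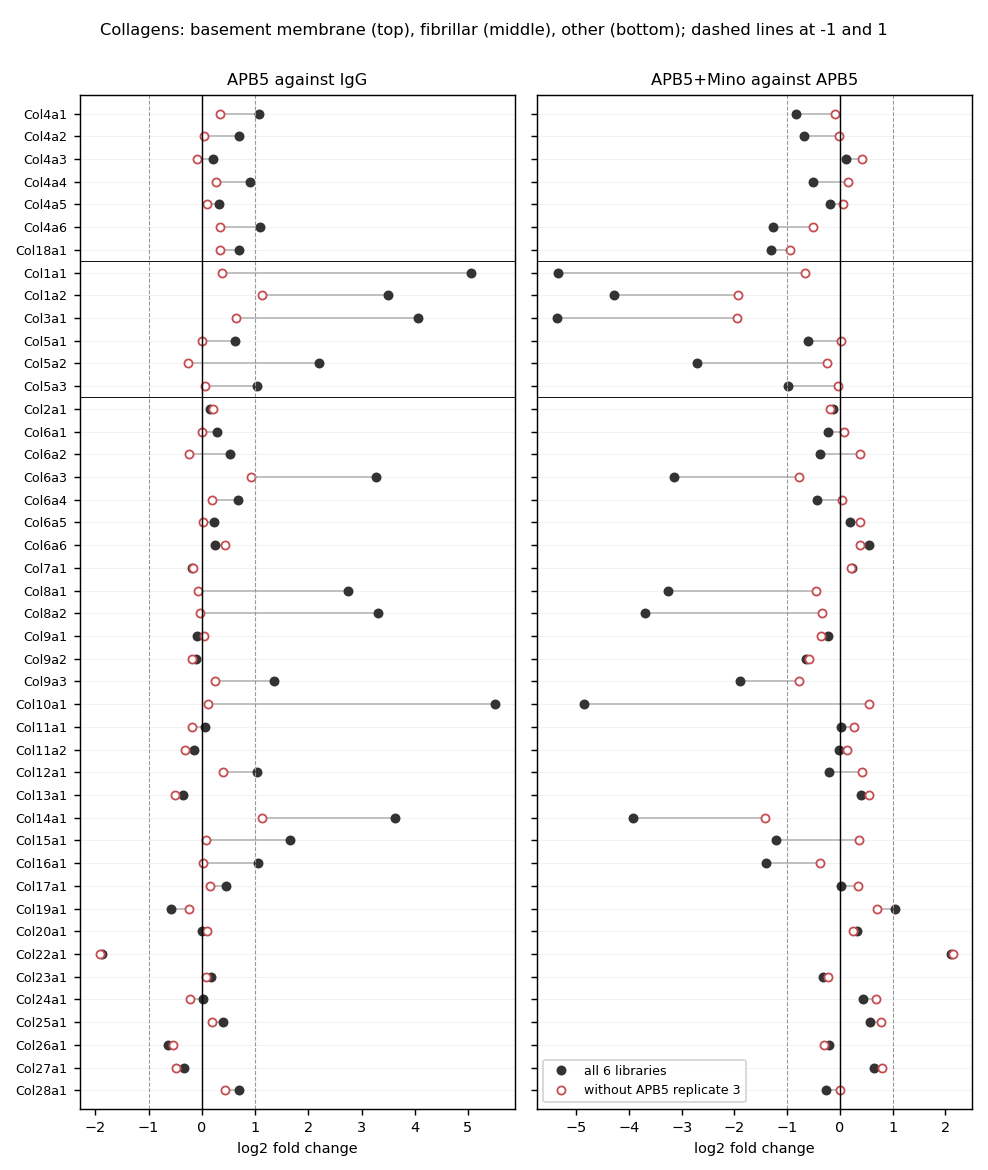
Log2 fold change of the 44 collagens for APB5 against IgG (left) and APB5+Mino against APB5 (right), with filled points for all 6 libraries, open points without APB5 replicate 3, dashed lines at -1 and 1 and horizontal lines between basement membrane, fibrillar and other collagens. The fibrillar median was 2.85 on the left and -3.49 on the right and moved to 0.22 and -0.45 without that library, whereas Col22a1 was at -1.88 and 2.10 with that library and at -1.92 and 2.14 without it.

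APB5+Mino against APB5 asked what minocycline did on top of the antibody. In the unpaired main fit 1 collagen rose, Col22a1, and 1 fell, Col18a1. Of all 20281 genes 1.66% were called, 0.843% higher and 0.819% lower. On the adjusted p alone 1 collagen was higher and 2 were lower, Col9a2 being the other one, against 2.79% and 2.03% of all genes. An unadjusted p under 0.05 was found for 20 collagens (5 higher and 15 lower) and 35.9% of all genes. DESeq2 called 6 collagens, among 7.63% of all genes, and the model with the Xist level 12, among 9.2%. Col22a1 had a log2 fold change of 2.10 ± 0.27 with an edgeR adjusted p of 0.043, and its 3 libraries in each group did not overlap. For Col18a1 the log2 fold change was -1.31 ± 0.27 with an edgeR adjusted p of 0.0497. Without APB5 replicate 3 the values were 2.14 ± 0.28 (edgeR adjusted p of 0.00246) for Col22a1 and -0.94 ± 0.14 (edgeR adjusted p of 0.00321) for Col18a1, which then missed the fold threshold. Deviations of same-numbered libraries of the 2 groups correlated weakly, at 0.134 to 0.182, and no label says what a replicate number marks. With the replicate number as a block Col22a1 and Col18a1 each had an edgeR adjusted p of 0.0641, and no gene of the table was called. Replicate 3 was the library with high Xist in both groups, so the block also takes up the Xist split. Both calls were also lost when APB5 replicate 1 or any of the 3 APB5+Mino replicates was left out, with edgeR adjusted p of up to 0.214, whereas 8 collagens (2 higher and 6 lower) were called without APB5 replicate 2, among 8.63% of all genes.

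Markers of the ciliary body also had lower values in APB5+Mino than in APB5. Optc, which encodes opticin of the vitreous, was at 92.4, 93.6 and 52.7 CPM in APB5 and at 24.3, 32.3 and 44.5 CPM in APB5+Mino. Ltbp2 was at 14.1, 18.8 and 29.7 CPM in APB5 and at 6.62, 7.75 and 11.2 CPM in APB5+Mino, so neither gene overlapped between the groups. Summed, these 2 markers ran from 82.4 to 112 CPM in APB5, 31.0 to 55.7 CPM in APB5+Mino, 53.3 to 127 CPM in IgG and 7.08 to 101 CPM in IgG+Mino. In IgG+Mino replicate 1, the library with the lowest Col18a1 of the 12, the sum was also the lowest, whereas in APB5 replicate 3, the library with the highest Col18a1, the sum of 82.4 CPM was the lowest of the APB5 group and below that of IgG replicate 2. The part of ciliary body tissue in the Col18a1 level was not tested.

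The type IV chains did not pass the test in this comparison. Col4a1 had a log2 fold change of -0.82 ± 0.43 with an edgeR adjusted p of 0.211, and -0.08 ± 0.10 without APB5 replicate 3, while Col4a2 went from -0.67 ± 0.40 to -0.02 ± 0.10. Col4a6 had the largest change of the 6, at -1.26 ± 0.45 with an edgeR adjusted p of 0.102, and without that library it was -0.51 ± 0.14 with an edgeR adjusted p of 0.0307. Over the 7 basement membrane collagens the median log2 fold change was -0.67, and -0.01 without APB5 replicate 3.

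All 6 fibrillar collagens had a fold change below 0, with a median of -3.49 on the log2 scale, and none was called. Without APB5 replicate 3 the median was -0.45, and Col1a2 and Col3a1 passed. Col1a2 then had a log2 fold change of -1.93 ± 0.20 with an edgeR adjusted p of 0.00101, and Col3a1 one of -1.95 ± 0.23 with an edgeR adjusted p of 0.00164. With all 6 libraries their values were -4.29 ± 1.00 and -5.37 ± 1.33, with edgeR adjusted p of 0.0591 and 0.0655, and the groups did not overlap for either gene. Col1a1, by contrast, was at -0.66 ± 0.38 without that library and overlapped between the groups. The 10 fibroblast and scleral markers summed to 139 to 275 CPM in APB5 and to 49.2 to 68.0 CPM in APB5+Mino, with 8 of 10 lower in every APB5+Mino library. Their sums were 59.1 to 136 CPM in IgG and 19.9 to 119 CPM in IgG+Mino. Markers of other cells were also lower in every APB5+Mino library, where 22.8% of all genes were. These were 12 of 12 for microglia and macrophages, 10 of 13 for pericytes and smooth muscle and 9 of 12 for endothelial cells. For gliosis they were 9 of 10 and for pigment epithelium and melanocytes 5 of 9. In Müller glia and in astrocytes and optic nerve glia 3 of 8 were lower, in ganglion and amacrine cells 2 of 8. For rods and for lens it was 0 of 8. The part of these cell types in the levels of Col1a2 and Col3a1 was not tested.

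Without APB5 replicate 3, an unadjusted p under 0.05 was found for 20 collagens (9 higher and 11 lower), against 40.5% of all genes. Then 14 collagens passed on the adjusted p alone, of which 6 lay higher and 8 lower in APB5+Mino, while 26.6% of all genes passed. The higher ones were Col22a1, Col27a1, Col25a1, Col19a1, Col24a1 and Col6a2. The lower ones were Col1a2, Col3a1, Col14a1, Col18a1, Col9a3, Col9a2, Col4a6 and Col9a1. Of these, 4 passed the fold threshold as well, among 4.64% of all genes, and besides the 3 given above it was Col14a1, at -1.42 ± 0.40 with an edgeR adjusted p of 0.0284. All 3 chains of type IX collagen were among the lower ones, Col9a3 at -0.78 ± 0.12, Col9a2 at -0.58 ± 0.11 and Col9a1 at -0.36 on the log2 scale.

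Col25a1 and Col27a1 were higher in every APB5+Mino library than in every APB5 library. Col25a1 (chr3:129925150-130393532, plus strand), a transmembrane collagen of neurons whose shed part was found in amyloid plaques, was at 11.97, 11.99 and 17.11 CPM in APB5 and at 20.4, 22.4 and 19.3 CPM in APB5+Mino. In IgG it was at 10.3, 12.04 and 9.27 CPM and in IgG+Mino at 11.4, 16.3 and 14.9 CPM. Col27a1 (chr4:63132241-63253228, plus strand), a fibril-forming collagen, was at 23.4, 28.3 and 33.8 CPM in APB5 and at 48.3, 37.1 and 50.8 CPM in APB5+Mino. It was at 39.9, 33.7 and 35.7 CPM in IgG and at 28.9, 29.5 and 21.8 CPM in IgG+Mino. With all 6 libraries the log2 fold changes were 0.58 ± 0.18 for Col25a1 and 0.66 ± 0.18 for Col27a1, with edgeR adjusted p of 0.0739 and 0.0646. Groups that did not overlap were found for 4 collagens higher in APB5+Mino and 10 lower, where 23.5% and 22.8% of all genes were, together 46.3%.

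Sequences before the RefSeq start were compared for 4 of these genes, namely 2 that were far higher in APB5 replicate 3 than elsewhere (Col3a1 and Col8a1) and 2 that were higher in APB5+Mino than in APB5 (Col25a1 and Col27a1). They were chosen after their values were seen, to show start regions of genes from either pattern. Each is the 250 bases before the gene's RefSeq start from the RefSeq promoter table (GRCm38.p6), found once in GRCm39 and written 5′ to 3′ on the gene's strand. They are Col3a1 at chr1:45350448-45350697 (plus), Col8a1 at chr16:57575101-57575350 (minus), Col25a1 at chr3:129974244-129974493 (plus) and Col27a1 at chr4:63133399-63133648 (plus). No GENCODE exon overlaps any of these windows. The windows of Col3a1 and Col8a1 end at the annotated start of the gene, whereas those of Col25a1 and Col27a1 lie inside the GENCODE gene interval, ending 49344 and 1408 bases after its start, before a RefSeq start further in. Capitals mark the motifs CCAAT (the CCAAT box), TATAAA (the TATA box) and GGGCGG (the GC box) on either strand, so that ATTGG on the printed strand is a CCAAT box, TTTATA is a TATA box and CCGCCC is a GC box.
Col3a1: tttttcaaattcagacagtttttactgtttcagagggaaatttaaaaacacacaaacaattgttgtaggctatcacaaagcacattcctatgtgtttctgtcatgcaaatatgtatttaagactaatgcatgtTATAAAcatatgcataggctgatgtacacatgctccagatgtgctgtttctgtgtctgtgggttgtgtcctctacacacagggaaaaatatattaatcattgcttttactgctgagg
Col8a1: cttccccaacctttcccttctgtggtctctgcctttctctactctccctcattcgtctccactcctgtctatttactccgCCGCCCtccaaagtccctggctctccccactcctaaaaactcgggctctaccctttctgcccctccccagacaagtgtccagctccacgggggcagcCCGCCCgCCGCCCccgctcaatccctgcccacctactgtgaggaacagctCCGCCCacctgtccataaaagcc
Col25a1: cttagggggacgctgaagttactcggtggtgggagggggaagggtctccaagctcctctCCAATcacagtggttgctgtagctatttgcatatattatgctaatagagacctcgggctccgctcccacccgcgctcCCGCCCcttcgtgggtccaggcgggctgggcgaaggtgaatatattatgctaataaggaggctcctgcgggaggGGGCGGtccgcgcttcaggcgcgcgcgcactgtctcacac
Col27a1: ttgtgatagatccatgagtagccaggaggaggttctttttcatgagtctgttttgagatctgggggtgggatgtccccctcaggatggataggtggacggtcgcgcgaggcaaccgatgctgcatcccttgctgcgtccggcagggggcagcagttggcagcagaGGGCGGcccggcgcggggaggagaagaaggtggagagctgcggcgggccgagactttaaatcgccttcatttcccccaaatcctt
The window of Col3a1 holds 1 TATAAA and neither other motif, and that of Col8a1 holds 4 GC boxes. Col25a1 has 1 CCAAT box and 2 GC boxes and Col27a1 has 1 GC box. Of 44 collagens, 35 had at least 1 window in the table, 38 windows in all. A GC box was in 22 of the 38 windows, a CCAAT box in 13 and TATAAA in 5, beside 32.7%, 33.8% and 12.4% of the 32851 windows of all genes. A match is a run of letters and not a measured site.

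IgG+Mino against IgG asked what minocycline did without the blocking antibody, and here the Xist split and the treatment cannot be told apart. In edgeR's test 0 collagens were called among 20143 genes, of which 0.0298% were (0.0199% higher and 0.00993% lower), and 8 had an unadjusted p under 0.05 (1 higher and 7 lower) against 8.37% of all genes. DESeq2 called 1, Col5a2, among 0.104% of all genes. The median log2 fold change was -0.14 over the 44 collagens, -0.05 for basement membrane, -0.41 for fibrillar and -0.17 for other collagens, beside -0.01 over all genes. No collagen was higher in every IgG+Mino library than in every IgG library, where 7.03% of all genes were, and 10 were lower, where 7.35% of all genes were. These were Col1a1, Col5a2, Col6a1, Col6a2, Col6a4, Col9a2, Col9a3, Col11a2, Col13a1 and Col27a1.

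Col9a2 (chr4:120896582-120912523, plus strand), a type IX chain, had the smallest p of the collagens here. It was at 28.8, 31.7 and 30.5 CPM in IgG and at 17.2, 18.8 and 22.3 CPM in IgG+Mino, with a log2 fold change of -0.64 ± 0.14 and an edgeR adjusted p of 0.585. In the antibody arm it was at 26.8, 26.4 and 30.1 CPM in APB5 and at 17.8, 16.2 and 19.7 CPM in APB5+Mino, with a log2 fold change of -0.65 ± 0.12 and an edgeR adjusted p of 0.0461, or 0.0641 with the replicate number as a block. All 6 libraries given minocycline were thus below all 6 that were not. The 2 differences were compared by an interaction term, which came to 0.01 ± 0.18 with an edgeR adjusted p of 0.985. Col5a2 was lower in IgG+Mino by a log2 fold change of -1.24 ± 0.28 with an edgeR adjusted p of 0.585.

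Col6a1 was at 105, 93.8 and 106 CPM in IgG and at 81.2, 74.8 and 59.5 CPM in IgG+Mino, a log2 fold change of -0.50 ± 0.14 with an edgeR adjusted p of 0.585. Col6a4 was at 8.43, 7.44 and 6.96 CPM in IgG and at 5.30, 6.32 and 5.42 CPM in IgG+Mino. Col11a2, a chain of the minor fibril collagen XI, was at 47.7, 39.6 and 42.0 CPM in IgG and at 37.0, 33.2 and 22.4 CPM in IgG+Mino. None of these groups overlapped.

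APB5+Mino against IgG+Mino asked what the antibody did where both groups had minocycline. Again edgeR called 0 collagens, while 1.24% of all 20049 genes were called (0.888% higher and 0.354% lower), and DESeq2 called 0, with 1.41% of all genes. An unadjusted p under 0.05 was found for 18 collagens (15 higher and 3 lower) against 29.3% of all genes. The 5 with an adjusted p of at most 0.05 were all higher in APB5+Mino and below the fold threshold, while 8.09% of all genes passed at that p, 4.8% higher and 3.28% lower. The median log2 fold change was 0.21 over the 44 collagens, 0.16 for basement membrane, 0.14 for fibrillar and 0.35 for other collagens, beside -0.00925 over all genes. In 15 collagens every APB5+Mino library was above every IgG+Mino library and in 2 below, where 17.7% and 17.6% of all genes were.

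Col19a1 (chr1:24296772-24627011, minus strand) had the smallest p, at 18.04, 20.63 and 20.74 CPM in APB5+Mino and 12.3, 13.3 and 11.2 CPM in IgG+Mino, a log2 fold change of 0.69 ± 0.11 with an edgeR adjusted p of 0.0169. In IgG it spread from 5.37 to 20.6 CPM and in APB5 from 4.54 to 13.8 CPM. Col6a4 was higher by 0.67 ± 0.13 (edgeR adjusted p of 0.0224), to 8.61, 9.32 and 9.10 CPM in APB5+Mino, and Col6a1 by 0.57 ± 0.12 (edgeR adjusted p of 0.0292), to 112, 101 and 107 CPM. For Col27a1 the log2 fold change was 0.76 ± 0.15 (edgeR adjusted p of 0.0261) and for Col25a1 it was 0.55 ± 0.14 (edgeR adjusted p of 0.0462). None of the 5 kept an adjusted p of at most 0.05 without IgG+Mino replicate 3, and 4 of them lost it without any 1 of the APB5+Mino replicates. Col12a1 was at 12.4, 17.4 and 14.9 CPM in APB5+Mino and at 8.53, 12.2 and 9.74 CPM in IgG+Mino, at 0.55 ± 0.17 with an edgeR adjusted p of 0.0718. Col8a2 spread widely in IgG+Mino, at 2.24, 9.99 and 6.51 CPM, against 3.22, 1.64 and 3.403 CPM in APB5+Mino.

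The interaction, the effect of minocycline after APB5 minus that after IgG, was fitted over all 12 libraries. It includes the difference between IgG+Mino and IgG, in which the Xist split and minocycline cannot be told apart. No collagen was called by edgeR, while 0.0141% of 21228 genes were, and 12 had an unadjusted p under 0.05 (3 higher and 9 lower) against 17.1% of all genes. The balance was the other way without APB5 replicate 3, with 8 higher and 3 lower against 14.7% of all genes, and 1 collagen was called, among 0.32% of all genes. DESeq2 called 2, Col22a1 and Col27a1, among 1.83% of all genes. With the Xist level in the model 12 collagens were called, 0 higher and 12 lower, among 4.39% of all genes. The smallest p was that of Col22a1, at 2.28 ± 0.47 on the log2 scale with an edgeR adjusted p of 0.124, followed by Col27a1 at 1.11 ± 0.25 with an edgeR adjusted p of 0.131. The collagen called without APB5 replicate 3 was Col27a1, at 1.24 ± 0.22 with an edgeR adjusted p of 0.0415, and Col22a1 was at 2.30 ± 0.49 with an edgeR adjusted p of 0.0701.

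Companion genes of collagen assembly were described from lists of enzymes, partners and receptors. None of them was called between APB5 and IgG, between IgG+Mino and IgG or between APB5+Mino and IgG+Mino. Of all genes, 0%, 0.0298% and 1.24% were called there. Of the 18 genes that fold and modify chains, 14 had a fold change below 0 in APB5+Mino against APB5 (11 without APB5 replicate 3), and none was called, where 1.66% of all genes were. Serpinh1, the collagen chaperone of the endoplasmic reticulum, was at 23.7, 22.4 and 94.4 CPM in APB5 and at 9.06, 8.04 and 9.27 CPM in APB5+Mino. Its log2 fold change was -2.44 with an edgeR adjusted p of 0.0532, and -1.40 with 0.000419 without APB5 replicate 3. In IgG it was at 14.4, 16.1 and 18.2 CPM and in IgG+Mino at 12.3, 15.9 and 16.8 CPM, so that APB5+Mino held the 3 lowest libraries.

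Among the 14 genes that trim and cross-link collagens, 12 had enough counts to be tested. Pcolce, which enhances removal of the procollagen tail, was at 26.1, 27.4 and 166 CPM in APB5 and at 5.32, 6.46 and 6.52 CPM in APB5+Mino, against 6.47, 9.82 and 10.4 CPM in IgG. Its log2 fold change between APB5+Mino and APB5 was -3.62 with an edgeR adjusted p of 0.0503, and -2.14 with an edgeR adjusted p of 9.39e-05 without APB5 replicate 3. The lysyl oxidases Lox and Loxl1, which start cross-links, had log2 fold changes of -4.34 and -2.65 there, and of -1.63 and -1.21 without that library. All 3 genes were lower in every APB5+Mino library than in every APB5 library.

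Of the 10 collagen receptors, 9 were tested and 1 fell in APB5+Mino against APB5, where 0.819% of all genes were called lower. This was Ddr2, a receptor tyrosine kinase for fibrillar collagens, at 6.36, 7.85 and 12.7 CPM in APB5 and 2.36, 2.995 and 3.03 CPM in APB5+Mino, with a log2 fold change of -1.70 and an edgeR adjusted p of 0.0461. Of the fibril-associated proteoglycans and glycoproteins, 12 of 14 were tested, all 12 had a fold change below 0 and 2 fell, beside the same 0.819% of all genes. Fmod, which encodes fibromodulin, was at 41.5, 38.4 and 91.0 CPM in APB5 and at 10.3, 11.2 and 14.4 CPM in APB5+Mino, with a log2 fold change of -2.27 and an edgeR adjusted p of 0.045. Prelp, an anchor between basement membrane and connective tissue, was at 44.2, 40.4 and 69.6 CPM in APB5 and at 22.03, 23.3 and 25.1 CPM in APB5+Mino, with a log2 fold change of -1.15 and an edgeR adjusted p of 0.0468. The log2 fold changes without APB5 replicate 3 were -1.35 for Ddr2, -1.74 for Fmod and -0.85 for Prelp, so that Prelp missed the fold threshold. With the replicate number as a block Ddr2, Fmod and Prelp each had an edgeR adjusted p of 0.0641. Fmod also stands in the list of fibroblast and scleral markers.

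The 13 partners of type IV collagen in basement membranes were at a median of -0.68 (log2 fold change of APB5+Mino against APB5) and none was called. The median without that replicate was -0.21 on the log2 scale, with 6 higher and 7 lower. Laminin chains went both ways in this comparison, Lamb2 at -0.88 and Lama1 at 0.68, with edgeR adjusted p of 0.0593 and 0.0628, and without APB5 replicate 3 they were at -0.56 and 0.86 with edgeR adjusted p of 0.00604 and 0.00406. Against IgG+Mino, 3 partners had an edgeR adjusted p of at most 0.05 in APB5+Mino and all were higher and below the fold threshold, where 4.8% of all genes were higher and 3.28% lower at that p. Lama5 was at 37.5, 46.1 and 44.3 CPM in APB5+Mino and 20.6, 25.4 and 24.8 CPM in IgG+Mino, with a log2 fold change of 0.86 and an edgeR adjusted p of 0.0125. Lama1 was at 10.7, 12.4 and 11.9 CPM against 7.15, 6.96 and 7.16 CPM, with 0.72 and an edgeR adjusted p of 0.0158, and for Agrn, the heparan sulfate proteoglycan agrin, the log2 fold change was 0.47 with an edgeR adjusted p of 0.0253.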

How the data were processed

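Retinal RNA of 12 mice was sequenced as 12 libraries (Illumina Stranded mRNA Prep, NextSeq). Per the labels and methods, the authors converted reads with bcl2fastq 2.20, aligned them with DRAGEN (version not given in the sources used here) to mm39 with NCBI annotation, and deposited raw counts per gene for each library. Deposited result tables per gene and transcript (log2 fold changes, p-values and group means) were not used.

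Counts were normalised by TMM and tested with edgeR 4.0.16 (R 4.3.3, limma 3.58.1) by glmQLFit and glmQLFTest, with filterByExpr, the default prior count and Benjamini-Hochberg adjustment over all genes tested. Each comparison was fitted on its own 6 libraries and the interaction on all 12. Calls needed an adjusted p no higher than 0.05 and a log2 fold change of 1 or more, up or down. SE is the standard error of the fitted log2 fold change, scaled by the quasi-likelihood dispersion. The 4 comparisons share libraries in pairs, so they are not independent. Chain ratios were compared by exact permutation tests. Total counts were 52740545 to 59411044 per library, and counting error is largest for the lowest collagens. Libraries of a group differed by more than counting error. Over genes with at least 20 counts in a pair, the chi-square per gene ran from 13.6 (IgG replicates 1 and 2) to 377.5 (APB5 replicates 2 and 3). The edgeR fit was tested on simulated counts, with dispersions from IgG and APB5+Mino and thus not from the APB5 group. The other steps were not simulated.

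Members and lists were chosen with earlier results of these data known. Values by library were given for every type I, III, IV, V and XVIII chain, for every collagen called, and in each comparison for up to 5 others with the smallest p. For companion lists, up to 4 genes with the smallest p could be named. Col2a1, Col7a1, Col20a1, Col8a1, Col8a2 and Col10a1 were in part singled out after their values were seen. The main fits were unpaired. Adjusted p with the replicate number as a block were given beside them for APB5+Mino against APB5. There, deviations from group means correlated at 0.134 to 0.182 for same-numbered libraries and at -0.157 to 0.0194 for others. Alternatives were RLE scaling, library totals only, DESeq2 1.42.0, other count filters, a replicate block, Xist as a covariate, 1 fit of all 12 libraries, leaving out each library in turn, and dropping the fold threshold.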

Additional observations from a re-analysis of the deposited data

How the results depend on the processing

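The number of collagens called in APB5+Mino against APB5 was 2, where 1.66% of all genes were called, and depended on the processing. It was 6 with DESeq2, among 7.63% of all genes, 12 with Xist as a covariate, among 9.2%, and 0 with the replicate block, among 0%. With RLE scaling it was 1, with library totals only 0 and in 1 fit of all 12 libraries 13. The share of all genes called was not counted for these settings. With 1 library left out the number ranged from 0 to 8. It reached 8 without APB5 replicate 2, among 8.63% of all genes, and 4 without APB5 replicate 3, among 4.64%. In APB5 against IgG the count of 0 became 1 with DESeq2, among 0.428% of all genes, and 20 with Xist as a covariate, among 5.58%. In IgG+Mino against IgG it became 1 with DESeq2, among 0.104% of all genes. In APB5+Mino against IgG+Mino it became 5 with no fold threshold, among 8.09% of all genes. With 1 library left out it was 0 to 2, the 2 being Col8a1 and Col8a2 without IgG+Mino replicate 1. The share of all genes called in that fit was not counted. For the interaction the count of 0 became 2 with DESeq2 (2 higher and 0 lower), among 1.83% of all genes. It was 12 with Xist as a covariate (0 higher and 12 lower), among 4.39%. With 1 library left out it was 0 to 1, the 1 being Col27a1 without APB5 replicate 3, among 0.32% of all genes. The cause was not tested. With the replicate block 0 collagens were called in every comparison. In the other 3 comparisons same-numbered libraries correlated at -0.148 to 0.202, and adjusted p with the block are not given there. Of the fold changes of named collagens, 863 of those refitted with 1 library left out kept their direction and side of the threshold and 54 moved without being called, while 10 gained and 9 lost the call. Under the other settings 925 kept both, 32 moved, 47 gained and 5 lost the call. No called value changed sign. Leaving APB5 replicate 3 out of the chain ratios was chosen after seeing the data and changed no direction.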
